A study of Mus musculus with 5 samples.

Results

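The methionine cycle and the steps that use its methyl donor were followed here through 10 mouse genes, Mat2a, Mat2b, Ahcy, Ahcyl1, Ahcyl2, Mtr, Mtrr, Gnmt, Bhmt and Amd1, out of 24421 genes measured. The members were chosen by gene symbol and not by a rule on their values, although earlier results of these data were known. Both tables held a row for each of the 10. RNA-seq had been made of 5 libraries, 1 each of MEFs, iPSCs, V6.5 cells, V6.5 cells with the non-targeting control shRNA (NTC) and V6.5 cells with an shRNA against Gldc (shGldc). MEFs were fibroblasts grown from embryos of CF-1 mice, and the V6.5 cells were mouse embryonic stem cells. The labels give feeder-free culture on gelatin with serum replacement and leukaemia inhibitory factor for the V6.5 cells and iPSCs, while the methods of the study also describe culture on feeders. The NTC and shGldc cells shared the V6.5 background and the shRNA vector, and whether each was a pool or a clone is not given in the sources used here. With 1 library per group there was no replicate error, so every difference below is a difference between libraries, with no SD, no p-value and no check by a second library. Levels are FPKM, fragments per kilobase of transcript and scaled to the mapped fragments of each library, which can be compared between genes of different length. Folds are ratios of FPKM as listed, and log2 ratios are of FPKM + 0.1, which draws low values together.

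In the methionine cycle, methionine is joined to ATP to make S-adenosylmethionine (SAM), SAM gives its methyl group to DNA, RNA, histones and small molecules, and the S-adenosylhomocysteine (SAH) left behind is split into adenosine and homocysteine. Homocysteine is methylated back to methionine with a methyl group from folate or from betaine, or leaves the cycle to cysteine. Glycine cleavage, for which Gldc encodes the decarboxylase, feeds the folate pool that supplies one of these methyl groups, and mouse embryonic stem cells are known for their heavy use of this one-carbon supply to keep up SAM. The comparisons asked how the transcripts of the cycle stood in pluripotent cells against fibroblasts, and how they stood when Gldc was knocked down.

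The reading of Ahcy and Amd1 depends on near copies elsewhere in the genome, shown here because they decide which differences can be assigned to 1 gene. In the GENCODE annotation of GRCm38 (M21), Ahcy lies on the minus strand of chromosome 2 (155059310 to 155074497, main transcript of 10 exons), and its copy Gm4737 is a single exon on the minus strand of chromosome 16 (46152985 to 46155077). Their coding sequences of 1296 bases differ at 4 positions, an identity of 99.7%. Amd1 lies on the minus strand of chromosome 10 (40287458 to 40302186, 8 exons) and Amd2 is a single exon on the same chromosome and strand (35708675 to 35711892). Their coding sequences of 1002 bases differ at 1 position. The lines below give 60 coding bases of each pair, bases 429 to 488 for Ahcy and bases 766 to 825 for Amd1, counted from the first base of the start codon, with the differing bases in capitals.
Ahcy: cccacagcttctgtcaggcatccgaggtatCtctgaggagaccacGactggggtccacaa
Gm4737: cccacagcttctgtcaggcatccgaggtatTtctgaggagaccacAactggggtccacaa
Amd1: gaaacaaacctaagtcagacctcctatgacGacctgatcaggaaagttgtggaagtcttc
Amd2: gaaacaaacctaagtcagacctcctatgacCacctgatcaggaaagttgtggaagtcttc
Of all 50-base stretches of the main transcript, 77.0% of Ahcy and 87.6% of Amd1 also occurred in transcripts of other genes. In the named copy alone the shares were 74.1% and 86.1%. A fragment read only within such a stretch matches both genes equally well, while a longer read may span a difference. How such fragments were assigned is not given in the sources used here.

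Shared sequence touched a few other members. Of the Bhmt transcript, 61.5% of the 50-base stretches occurred in other genes, mainly the intron-less copy Gm5096, for which no value was used here. For Mat2a the share was 13.9%, part of it because 11.3% of its exon bases overlap Particl, a transcript of the opposite strand, which reached FPKM of only 0.391 to 1.26. The share was 4.68% for Ahcyl2 and 0% for Mat2b, Ahcyl1, Mtr, Mtrr and Gnmt.

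Promoters are shown for Mat2a, which was present in every library, and for Gnmt, Bhmt and Bhmt2, which were listed at 0 in MEFs, with their CG dinucleotides marked. RefSeq promoters of GRCm38.p6, windows of 300 bases that end 50 bases past each start site, were matched for all 10 members, with 15 promoters between them. The motif searched was CG, which reads the same on both strands, and the median of all 32851 promoters was 7. Mat2a (chr6:72439507-72439806, minus strand) held 34, a count reached by 7.73% of all promoters. Gnmt (chr17:46729116-46729415, minus strand) held 11 and Bhmt (chr13:93637709-93638008, minus strand) held 8, counts reached by 41.4% and 48.7% of promoters. Bhmt2 (chr13:93674253-93674552, minus strand), a relative and neighbour of Bhmt that uses S-methylmethionine, held 26, a count reached by 16.9%. Each is given below 5′ to 3′ with CG in capitals.
Mat2a: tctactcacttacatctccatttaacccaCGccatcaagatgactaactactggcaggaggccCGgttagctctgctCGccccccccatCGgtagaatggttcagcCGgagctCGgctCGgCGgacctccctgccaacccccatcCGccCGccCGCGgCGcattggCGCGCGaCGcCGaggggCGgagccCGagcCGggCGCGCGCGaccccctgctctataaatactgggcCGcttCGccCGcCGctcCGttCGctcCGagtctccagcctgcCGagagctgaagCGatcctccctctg
Gnmt: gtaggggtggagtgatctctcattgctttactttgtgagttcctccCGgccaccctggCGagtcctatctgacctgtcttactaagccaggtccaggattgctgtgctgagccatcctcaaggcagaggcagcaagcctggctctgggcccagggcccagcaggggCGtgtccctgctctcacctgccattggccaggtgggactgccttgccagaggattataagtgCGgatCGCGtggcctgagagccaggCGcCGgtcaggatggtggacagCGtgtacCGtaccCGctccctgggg
Bhmt: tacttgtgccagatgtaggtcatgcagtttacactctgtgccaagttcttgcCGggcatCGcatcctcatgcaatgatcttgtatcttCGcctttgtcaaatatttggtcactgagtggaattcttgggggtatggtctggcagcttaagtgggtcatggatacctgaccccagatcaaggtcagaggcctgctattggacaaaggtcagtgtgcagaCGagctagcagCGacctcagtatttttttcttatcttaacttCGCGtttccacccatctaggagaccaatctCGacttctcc
Bhmt2: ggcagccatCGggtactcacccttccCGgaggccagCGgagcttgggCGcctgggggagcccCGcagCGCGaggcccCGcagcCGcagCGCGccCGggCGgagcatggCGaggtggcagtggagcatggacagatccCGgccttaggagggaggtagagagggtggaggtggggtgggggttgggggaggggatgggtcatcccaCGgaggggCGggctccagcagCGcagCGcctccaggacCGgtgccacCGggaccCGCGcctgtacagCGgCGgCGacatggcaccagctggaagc
Among the other members, Ahcy held 13, Mat2b 19, Mtr and Amd1 24 each, and the promoters of Mtrr 37 and 39, while the 3 promoters of Ahcyl1 held 23 to 46 and the 3 of Ahcyl2 held 2 to 28. Bhmt at 8 and Gnmt at 11, the members listed at 0 in MEFs, held fewer than the richest promoter of any other member, Ahcy at 13 being the nearest. Against this, Ahcyl2 also had a promoter with 2, and Bhmt2, not a member, was listed at 0 in MEFs with 26. CG counts are letters in a window and say nothing of methylation or factor binding in these cells.

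The libraries matched their labels in their markers. The targeted gene, Gldc, stood at an FPKM of 2.07 in shGldc cells, 36.0-fold below the 74.7 of NTC cells, with 59.7 in V6.5 cells, 70.8 in iPSCs and 0.123 in MEFs. Summed over 7 pluripotency markers, the level was 3.15 in MEFs and 3623 to 6699 in the other 4 libraries, and 7 fibroblast markers summed to 6902 in MEFs and 7.75 to 50.3 in the others. The MEF library also held macrophage markers at a summed 159, with C1qa at 52.7, C1qb at 32.3 and C1qc at 39.8, where the other libraries held 9.35 to 20.6, nearly all of it Cd68. In bulk RNA, fewer cells of a type and less RNA per cell cannot be told apart. Depth, estimated from the spacing of low values, was about 22087979 to 24690022 fragments in MEFs, iPSCs and V6.5 cells and is known only to a factor of 2 in NTC and shGldc cells.

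The 10 members together held 0.0391% of the summed FPKM in MEFs, 0.0426% in iPSCs, 0.0729% in V6.5 cells, 0.0816% in NTC cells and 0.0757% in shGldc cells. Most of the gap between MEFs and V6.5 cells was Ahcy. Ahcy and Mat2a were the highest members in every library, Mat2b and Ahcyl1 came next, and Mtr, Mtrr and Ahcyl2 followed at FPKM of 3.63 to 15.2. Gnmt, Bhmt and Amd1 changed places from library to library, and Gnmt and Bhmt were listed at 0 in MEFs.

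**Figure D1:**
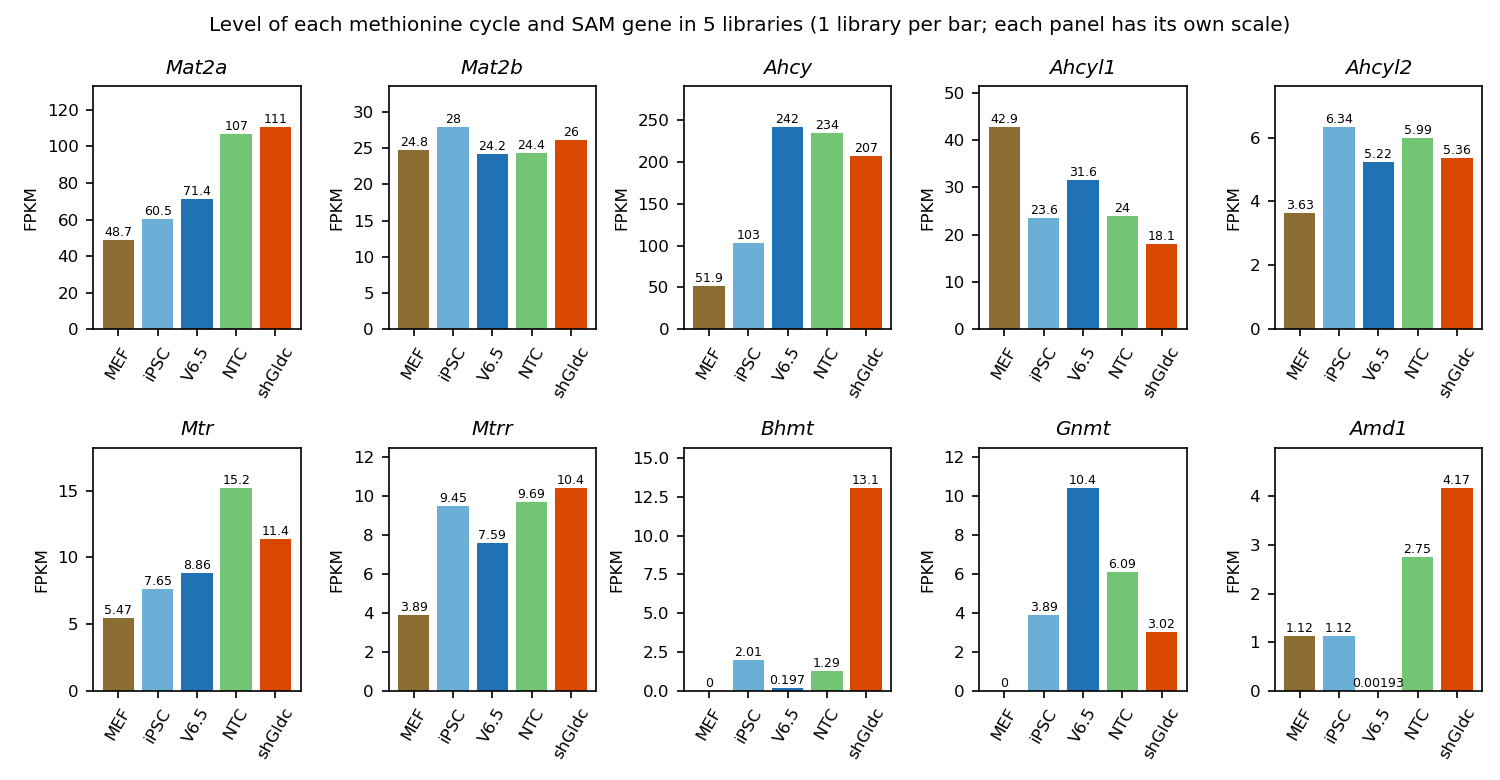
FPKM of each of the 10 genes (vertical axis, linear from 0, a separate scale in each panel) in the 5 libraries (horizontal axis), 1 library per bar, with no error bars because no group was replicated. Mat2b stays between 24.2 and 28.0, Ahcy goes from 51.9 in MEFs to 242 in V6.5 cells, and Bhmt stands at 13.1 in shGldc cells against at most 2.01 elsewhere.

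SAM is made by Mat2a, the catalytic subunit of the methionine adenosyltransferase of most tissues, with Mat2b as its regulatory subunit. Mat2a stood at 48.7 in MEFs, 60.5 in iPSCs, 71.4 in V6.5 cells, 107 in NTC cells and 111 in shGldc cells. Mat2b stood at 24.8, 28.0, 24.2, 24.4 and 26.0 in the same order. Thus the catalytic subunit was lowest in MEFs and highest in both shRNA-expressing lines, while the regulatory subunit varied by 1.16-fold over all 5 libraries. Mat2a over Mat2b was 1.97 in MEFs, 2.16 in iPSCs, 2.96 in V6.5 cells, 4.39 in NTC cells and 4.26 in shGldc cells. Mat2a in shGldc over NTC had a log2 ratio of 0.05, and Mat2b one of 0.10. The liver form of the enzyme, Mat1a, was listed at 0 in MEFs, V6.5 cells and NTC cells, at 0.0130 in iPSCs and at 0.110 in shGldc cells, so the SAM synthase transcripts of all 5 libraries were almost wholly those of Mat2a.

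Mettl16, which methylates the Mat2a transcript and promotes its splicing and stability when SAM is short, had an FPKM of 9.72 in MEFs, 16.6 in iPSCs, 21.9 in V6.5 cells, 37.1 in NTC cells and 36.5 in shGldc cells. The order of the first 4 libraries was the order of Mat2a. Its log2 ratio in shGldc over NTC was -0.03. Slc25a26, the carrier that takes SAM into mitochondria, stood at 3.86, 11.4, 7.72, 8.52 and 10.9 in MEFs, iPSCs, V6.5, NTC and shGldc cells. It was therefore lowest in MEFs, and its log2 ratio in shGldc over NTC was 0.35.

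SAH is removed by Ahcy, the enzyme that splits it, and SAH that is not removed is known to inhibit methyltransferases. Ahcy had an FPKM of 51.9 in MEFs, 103 in iPSCs, 242 in V6.5 cells, 234 in NTC cells and 207 in shGldc cells. Its log2 ratio over MEFs was 2.22 in V6.5 cells, 4.66-fold, and 0.99 in iPSCs, 1.98-fold. The copy Gm4737 had 67.5 in MEFs, 37.8 in iPSCs, 225 in V6.5 cells, 243 in NTC cells and 227 in shGldc cells. Ahcy thus took 43.4% of the pair in MEFs, 73.1% in iPSCs and 47.7% to 51.8% in the V6.5-derived libraries. Summed, the pair came to 119 in MEFs, 141 in iPSCs, 467 in V6.5 cells, 477 in NTC cells and 433 in shGldc cells. On the sum, V6.5 cells were 3.91-fold above MEFs, but iPSCs were only 1.18-fold above them and 3.32-fold below V6.5 cells.

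Ahcyl1 and Ahcyl2 encode relatives of Ahcy that bind the inositol trisphosphate receptor and are not known to split SAH. Ahcyl1 stood at 42.9 in MEFs, 23.6 in iPSCs, 31.6 in V6.5 cells, 24.0 in NTC cells and 18.1 in shGldc cells. It was the member whose level was highest in MEFs and lowest in shGldc cells. Its log2 ratio was -0.44 in V6.5 cells over MEFs, -0.86 in iPSCs over MEFs and -0.41 in shGldc over NTC, all under 2-fold, although the iPSC ratio was -1.16 after rescaling to the same FPKM sum. Ahcyl2 stood at 3.63, 6.34, 5.22, 5.99 and 5.36 in MEFs, iPSCs, V6.5, NTC and shGldc cells. The 2 relatives together made up 47.3% of the FPKM of the 3 genes in MEFs, 22.5% in iPSCs, 13.2% in V6.5 cells, 11.4% in NTC cells and 10.2% in shGldc cells, with Gm4737 not counted.

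**Figure D2:**
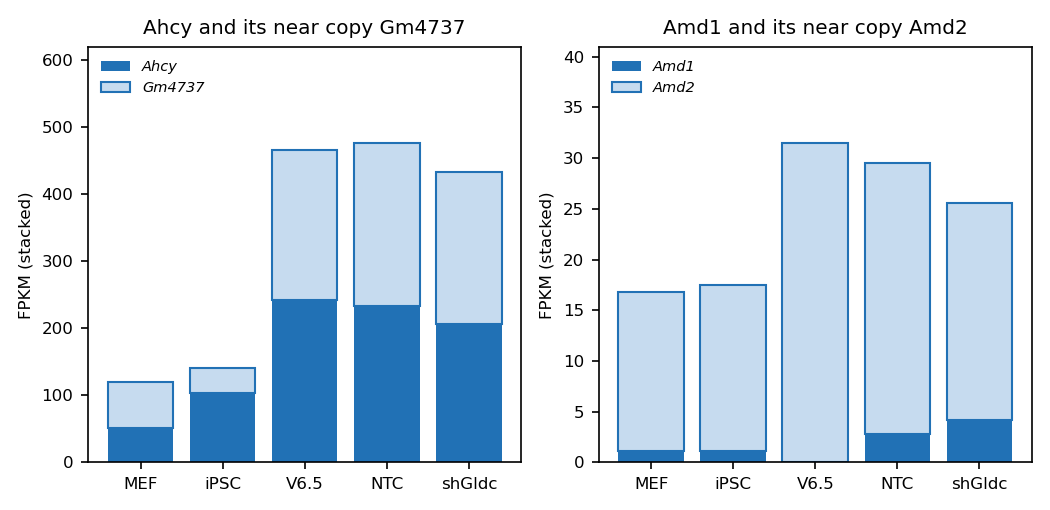
FPKM of Gm4737 stacked on that of Ahcy (left) and of Amd2 stacked on that of Amd1 (right), vertical axes linear from 0, 1 library per bar. The summed Ahcy pair is 119 in MEFs and 141 in iPSCs against 433 to 477 in the V6.5-derived libraries, and Amd1 is a thin slice of its pair in every library.

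Homocysteine is methylated with a folate-borne methyl group by Mtr, the cobalamin-dependent methionine synthase, which Mtrr keeps in its active state. Mtr had an FPKM of 5.47 in MEFs, 7.65 in iPSCs, 8.86 in V6.5 cells, 15.2 in NTC cells and 11.4 in shGldc cells. Mtrr had 3.89, 9.45, 7.59, 9.69 and 10.4 in the same libraries. Both were lowest in MEFs. Mtrr passed 2-fold over MEFs in iPSCs (log2 ratio 1.26, but 0.96 after rescaling) and stood just under it in V6.5 cells (0.94), and Mtr was at 0.48 and 0.69. Mtr had a log2 ratio of -0.42 in shGldc over NTC, and Mtrr one of 0.10.

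The betaine route showed the largest difference of any member between shGldc and NTC cells. Bhmt, which moves a methyl group from betaine to homocysteine and is known for its high level in liver and kidney, was listed at 0 in MEFs and had an FPKM of 2.01 in iPSCs, 0.197 in V6.5 cells, 1.29 in NTC cells and 13.1 in shGldc cells. That put shGldc 10.1-fold above NTC in FPKM as listed. With the pseudocount the log2 ratio was 3.24, which 98.7% of all tested genes did not exceed. At the estimated depth, the value in V6.5 cells rested on about 12.1 fragments, that in NTC on about 46.6 and that in shGldc on about 938. Bhmt over Mtr, which sets the betaine route beside the folate route, was 0.263 in iPSCs, 0.0223 in V6.5 cells, 0.0850 in NTC cells and 1.15 in shGldc cells. The shGldc library was thus the only one of the 5 in which the Bhmt transcript stood above that of Mtr. As given above, most 50-base stretches of the Bhmt transcript also occur in other genes, mainly Gm5096.

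Genes of the same stretch of chromosome 13 were looked at after the values of Bhmt were known. Within 200000 bases of Bhmt lie 5 protein-coding genes, in the order Jmy, Bhmt, Bhmt2, Dmgdh and Arsb. Bhmt2 and Dmgdh, the dehydrogenase of the dimethylglycine that Bhmt leaves behind, start head to head 131 bases apart, and the start site of Bhmt is 36341 bases from that of Bhmt2. Bhmt2 was listed at 0 in MEFs and had 1.23 in iPSCs, 0.107 in V6.5 cells, 1.71 in NTC cells and 0.997 in shGldc cells. Dmgdh was listed at 0 in MEFs and had 2.102, 0.0538, 3.41 and 2.50 in the same order. Bhmt, Bhmt2 and Dmgdh shared a low level in V6.5 cells and a higher one in iPSCs and NTC cells. They parted in shGldc over NTC, where the log2 ratio was 3.24 for Bhmt, -0.72 for Bhmt2 and -0.43 for Dmgdh. Of the outer neighbours, Jmy had 1.71 in NTC and 1.702 in shGldc cells, and Arsb had 1.29 and 2.30, in the direction of Bhmt but under 2-fold.

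**Figure D3:**
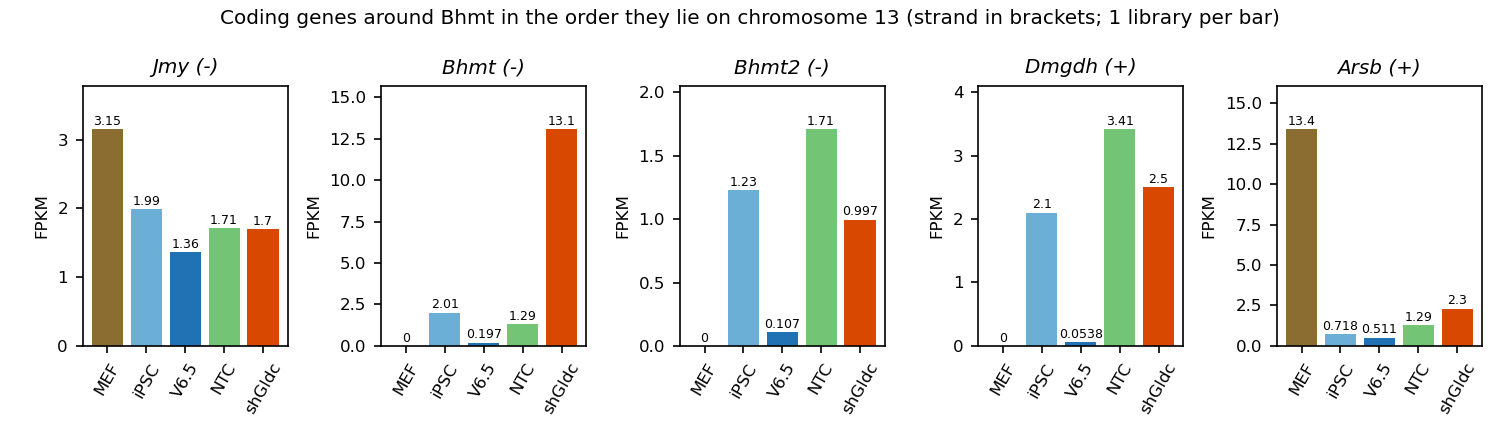
FPKM (vertical axis, linear from 0, own scale per panel) of the 5 protein-coding genes around Bhmt in the 5 libraries, 1 library per bar, with the panels in genomic order and the strand in brackets. Bhmt alone is high in shGldc cells, at 13.1, while Bhmt2 and Dmgdh stand at 0.997 and 2.50 there, below their NTC values of 1.71 and 3.41.

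Since Bhmt is a liver gene, 9 endoderm and liver markers were read beside it. They summed to 4.48 in MEFs, 18.7 in iPSCs, 5.27 in V6.5 cells, 4.60 in NTC cells and 18.2 in shGldc cells. In shGldc cells 3 of the 9 reached an FPKM of 1, and most of the sum was Gata6 at 8.22 (0.462 in NTC) and Gata4 at 7.84 (2.38 in NTC), both early endoderm factors. Sox17 was at 0.656 (0.160 in NTC) and Foxa2 at 0.316 (0.0291 in NTC), both below an FPKM of 1. Hnf4a was at 1.13 in shGldc and 1.32 in NTC cells. The defining hepatocyte genes Alb, Afp and Ttr were all listed at 0 in both libraries, and Apoa1 was listed at 0 in shGldc cells. In iPSCs Gata4 stood at 9.99, Gata6 at 4.46 and Bhmt at 2.01, where V6.5 cells had 3.52, 0.646 and 0.197. The part of endoderm cells in the Bhmt values was not tested.

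SAM is also used by Gnmt, which methylates glycine to sarcosine and is known as a buffer of SAM in liver. Gnmt was listed at 0 in MEFs and had an FPKM of 3.89 in iPSCs, 10.4 in V6.5 cells, 6.09 in NTC cells and 3.02 in shGldc cells. It was present in all 4 pluripotent libraries, highest in untreated V6.5 cells and lowest among them in shGldc cells. No fold over MEFs is given because of the 0, and on the log2(FPKM + 0.1) scale the difference was 6.72 in V6.5 cells and 5.32 in iPSCs, sizes that the pseudocount sets, since with a pseudocount of 1 they were 3.51 and 2.29. In shGldc over NTC, Gnmt was 2.02-fold lower without the pseudocount and had a log2 ratio of -0.99 with it, at the edge of the 2-fold limit. These 2 values rested on about 91.3 and 90.04 fragments, with the uncertainty of the NTC and shGldc depths.

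Amd1 removes the carboxyl group of SAM, which commits it to the polyamines spermidine and spermine. The row of Amd1 had an FPKM of 1.12 in MEFs, 1.12 in iPSCs, 0.00193 in V6.5 cells, 2.75 in NTC cells and 4.17 in shGldc cells. That of Amd2 had 15.6, 16.3, 31.5, 26.8 and 21.4 in the same order. The V6.5 value of Amd1 was less than 1 fragment at the estimated depth, so no fold is given against it, and the size of a log2 ratio against it is set by the pseudocount. With a pseudocount of 1 or 0.01, for example, NTC over V6.5 was 1.91 or 7.86 in place of 4.81. Together the rows came to 16.8 in MEFs, 17.5 in iPSCs, 31.5 in V6.5 cells, 29.6 in NTC cells and 25.6 in shGldc cells. On the sum, V6.5 cells stood 1.88-fold above MEFs, and the log2 ratio of shGldc over NTC was -0.21 in place of 0.58 for the Amd1 row. The rows of the pair therefore gave opposite directions in all 6 comparisons according to whether they were summed.

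Counted against all genes, the members were not more often apart than others in the comparisons with MEFs. Each comparison kept the genes that reached an FPKM of 1 in 1 or both of its libraries, and 2-fold on the log2(FPKM + 0.1) scale was taken as the limit. In V6.5 cells over MEFs, 2 of 9 members were at least 2-fold higher (Gnmt and Ahcy), beside 30.3% of all genes, and 1 was at least 2-fold lower (Amd1, which was higher when summed with Amd2), beside 23.3%. Bhmt was the member below the filter. The median log2 ratio was 0.55 for the members and 0.25 for all genes. In iPSCs over MEFs, 3 of 10 were higher (Gnmt, Bhmt and Mtrr), beside 31.5%, and 0 were lower, beside 21.3%, with medians of 0.63 and 0.31. After rescaling or centring, the split was 2 higher and 1 lower, as Mtrr fell inside the limit and Ahcyl1 passed it downward. Rescaling the libraries to the same FPKM sum brought the medians of all genes down to 0.01 and 0.02 in these comparisons, so log2 ratios of up to about 0.3 over MEFs, such as that of Mat2a in iPSCs, lie within that shift, and centring turned the Mat2a ratio to slightly below 0.

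Between iPSCs and V6.5 cells, 2 of 10 members were at least 2-fold higher in iPSCs (Amd1 at 3.58 and Bhmt at 2.83), beside 10.1% of all genes, and 2 were lower (Gnmt at -1.40 and Ahcy at -1.23), beside 7.44%. The Amd1 difference was not there when the row was summed with Amd2, where it became -0.85. The Ahcy difference became -1.73 when summed with Gm4737. Mat2a (-0.24), Mat2b (0.21), Mtr (-0.21), Mtrr (0.31), Ahcyl1 (-0.42) and Ahcyl2 (0.28) were all within 2-fold. The median over members was near 0, as was that of all genes at 0.04.

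With Gldc knocked down, the members other than Bhmt and Gnmt were all inside 2-fold of NTC. In shGldc over NTC, 1 of 10 members was at least 2-fold higher (Bhmt), beside 8.97% of all genes, and 0 were at least 2-fold lower, beside 7.68%, with Gnmt just inside the limit. The median log2 ratio was -0.05 for the members and 0.04 for all genes. Mat2a, Mat2b and Mtrr had ratios of 0.05 to 0.10, Ahcyl2 and Ahcy of -0.16 and -0.18, and Ahcyl1 and Mtr of -0.41 and -0.42. The Amd1 row had 0.58, or -0.21 when summed with Amd2. All 3 genes of the Ahcy family were lower in shGldc cells, by 1.12-fold to 1.33-fold. None of these small differences can be set against a replicate. In the same comparison 6 of the 7 pluripotency markers were lower and 1 higher, with a median log2 ratio of -0.41, and their part in the members' values was not tested.

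The control shRNA library itself stood apart from untreated V6.5 cells in some members, a comparison that also includes any difference between tables made separately. In NTC over V6.5, 2 of 10 members were at least 2-fold higher (Amd1 at 4.81 and Bhmt at 2.23), beside 4.99% of all genes, and 0 were at least 2-fold lower, beside 10.3%. The Amd1 call rests on a V6.5 value of less than 1 fragment, and summed with Amd2 the ratio was -0.092, which left 1 member higher. Mtr was at 0.77, Mat2a at 0.58 and Gnmt at -0.76. The medians were 0.27 for the members and -0.06 for all genes. In shGldc over V6.5, 2 were higher (Bhmt at 5.47 and Amd1 at 5.39), beside 9.89%, and 1 was lower (Gnmt at -1.75), beside 13.9%, with medians of 0.23 and -0.02. There too the Amd1 ratio turned on the sum with Amd2, to -0.30. Bhmt in NTC cells was 6.55-fold above untreated V6.5 cells in FPKM as listed, but its log2 ratio was 0.94 with a pseudocount of 1, inside the limit. Mat2a in shGldc over V6.5 (0.63) was close to its 0.58 in NTC over V6.5. Of 7 fibroblast markers, 6 passed the filter in NTC over V6.5, of which 2 were higher and 4 lower, 3 of them by at least 2-fold. Their sum was 50.3 in V6.5 cells and 13.4 in NTC cells, with Col1a1 at 20.5 and 1.24 and Thy1 at 5.63 and 6.95. Of the 7 pluripotency markers, 4 were higher and 3 lower, and only Dppa5a, 2.88-fold lower in NTC cells, was past 2-fold. The part of fibroblasts in the V6.5 values of the members was not tested. These comparisons share libraries, so they do not count as separate observations.

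**Figure D4:**
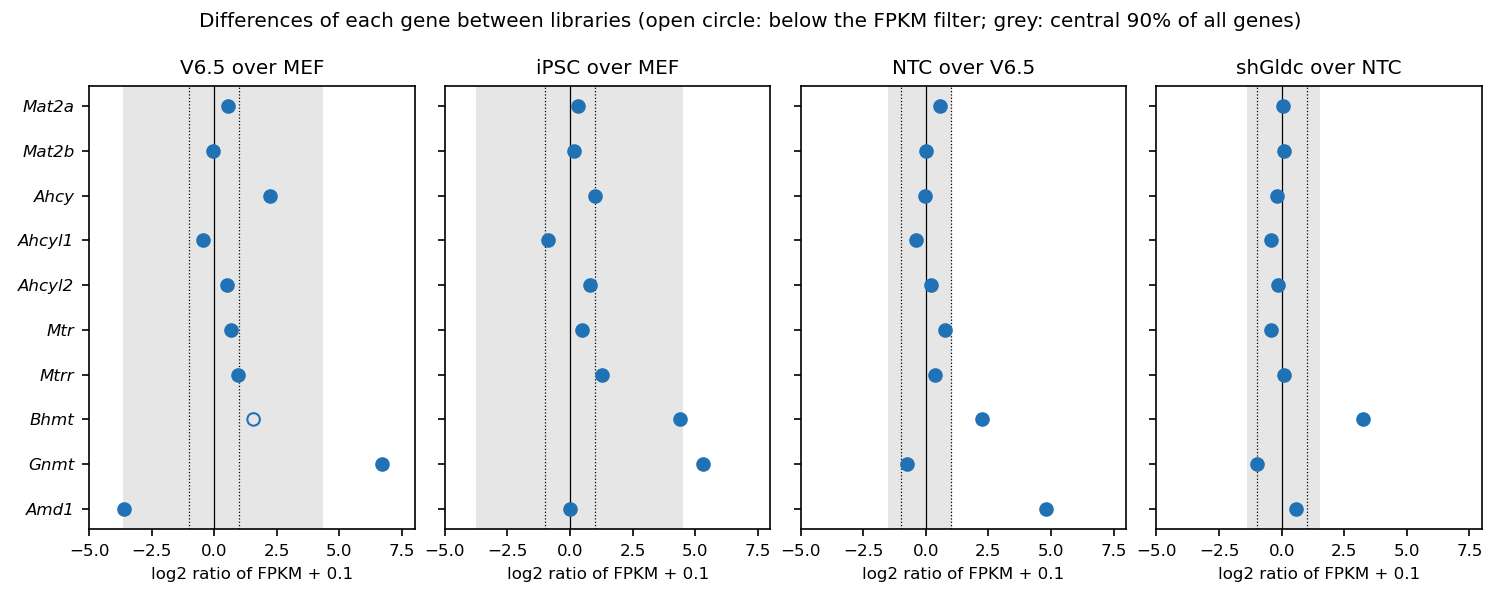
Log2 ratio of FPKM + 0.1 (horizontal axis) of each of the 10 genes (vertical axis) in 4 of the 6 comparisons, 1 library against 1 library, with dotted lines at 2-fold, the central 90% of all tested genes in grey and an open circle for a gene below the FPKM filter. In shGldc over NTC only Bhmt, at 3.24, lies outside the grey band, and in V6.5 over MEF Gnmt lies above it at 6.72.

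The other supply routes of the cycle were read from hand-written gene lists. Of the 5 genes of betaine supply and turnover, 3 passed the filter in shGldc over NTC, and all 3 were lower by less than 2-fold. Of the 11969 genes kept there, 5649 were lower and 7.68% were at least 2-fold lower. The 3 betaine genes ran from Aldh7a1, which oxidizes betaine aldehyde (51.5 in NTC, 46.9 in shGldc, log2 ratio -0.13), down to Bhmt2. In V6.5 over MEF only 2 of the 5 passed the filter, Sardh and Aldh7a1. Sardh, the dehydrogenase of the sarcosine that Gnmt makes, was lower (8.61 in MEFs, 0.154 in V6.5 cells, log2 ratio -5.10). Aldh7a1 was slightly higher (33.3 and 43.8, log2 ratio 0.40). Chdh, which starts betaine synthesis from choline, was under an FPKM of 0.4 in every library. Thus Gnmt was listed at 0 where Sardh was present, and Sardh was at or below 0.154 where Gnmt was present. Of the 6 genes that bring cobalamin to Mtr, 5 were higher and 1 lower in shGldc over NTC, all within 2-fold. They ran from Tcn2, the plasma carrier of cobalamin (21.0 to 38.2, log2 ratio 0.86), to Abcd4, its lysosomal exporter (12.5 to 11.2, -0.15). Among all 11969 genes of that comparison, 6320 were higher, 8.97% were past the limit upward and 7.68% downward. In V6.5 over MEF 1 of the 6 cobalamin genes was past the limit upward and 2 downward, beside 30.3% and 23.3% of all genes. The highest was Cd320, the cell-surface receptor for the carrier (12.9 in MEFs, 29.2 in V6.5 cells, 1.17), and the lowest Lmbrd1, which works with Abcd4 (6.19 and 1.29, -2.18).

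On the exit to cysteine, Cth, which splits cystathionine to cysteine, went from 19.3 in NTC to 9.60 in shGldc cells (2.01-fold lower), and Cdo1, which oxidizes cysteine, from 6.07 to 12.3 (2.03-fold higher). Cbs, which joins homocysteine to serine, stood at 26.8 and 18.9 (log2 ratio -0.50). So 1 of the 4 genes of transsulfuration was past the limit upward and 1 downward, both at its edge, beside 8.97% and 7.68% of all genes. Cth in untreated V6.5 cells was 9.20, close to its shGldc value. Between cell types Cbs was the highest of the list, at 0.656 in MEFs and 23.0 in V6.5 cells (4.94), and Cdo1 the lowest, at 21.3 and 6.06 (-1.80).

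Past Amd1, the 10 genes of polyamine synthesis and turnover held 3 higher and 7 lower in shGldc over NTC, and 1 of them passed 2-fold, downward, as did 7.68% of all genes. This was Oaz1, the antizyme that sends ornithine decarboxylase to the proteasome, at 129.7 in NTC and 16.3 in shGldc cells (log2 ratio -2.99). Its levels of 62.4 in MEFs, 115 in iPSCs and 53.3 in V6.5 cells also varied widely, and 53.9% of its 50-base stretches occur in a copy, Oaz1-ps, so the value is uncertain. Oaz2, the related antizyme, was highest of the list in the comparison (69.2 to 100.1, 0.53). Odc1, the decarboxylase, stood at 91.6 in MEFs, 232 in iPSCs, 373 in V6.5 cells, 490 in NTC cells and 301 in shGldc cells. It was the highest of the list in V6.5 over MEF (2.02), while Sat1, which acetylates polyamines for export, was the lowest (-0.74). Of Odc1's stretches 42.2% also occur in other genes.

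Methionine salvage returns the methylthio group left by polyamine synthesis. Of the 5 genes listed for it, 2 were higher and 3 lower in shGldc over NTC, from Apip (0.29) to Adi1 (-0.67). None of the 5 reached 2-fold, a limit that 8.97% of all genes passed upward and 7.68% downward. In V6.5 over MEF 2 of the 5 were at least 2-fold higher, beside 30.3% of all genes, and 0 were lower by as much, beside 23.3%. That list ran from Mri1 (14.4 to 44.0, 1.61) to Mtap (42.3 to 39.2, -0.11). The adenosine that Ahcy releases is removed by Adk and Ada, whose log2 ratios were -0.29 and -0.55 in shGldc over NTC. Both were also slightly lower in V6.5 cells than in MEFs, at -0.08 and -0.41.

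Of the 9 small-molecule methyltransferases listed other than Gnmt, 7 passed the filter in V6.5 over MEF, and 2 were past the limit upward and 2 downward, close to the 30.3% and 23.3% of all genes. Nnmt, which methylates nicotinamide, was lowest (34.8 in MEFs, 0.514 in V6.5 cells, -5.83), and As3mt, the arsenic methyltransferase, highest (3.04 and 12.04, 1.95). In shGldc over NTC, 4 were higher and 3 lower, and Tpmt, which methylates thiopurines, was the 1 past 2-fold (2.24 to 0.546, -1.86), beside 7.68% of all genes. Its exons overlap Gm18807 on the opposite strand, and its level with the knockdown lies below an FPKM of 1. Pemt, which makes phosphatidylcholine from phosphatidylethanolamine, was highest in that comparison (7.41 to 11.2, 0.59).

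**Figure D5:**
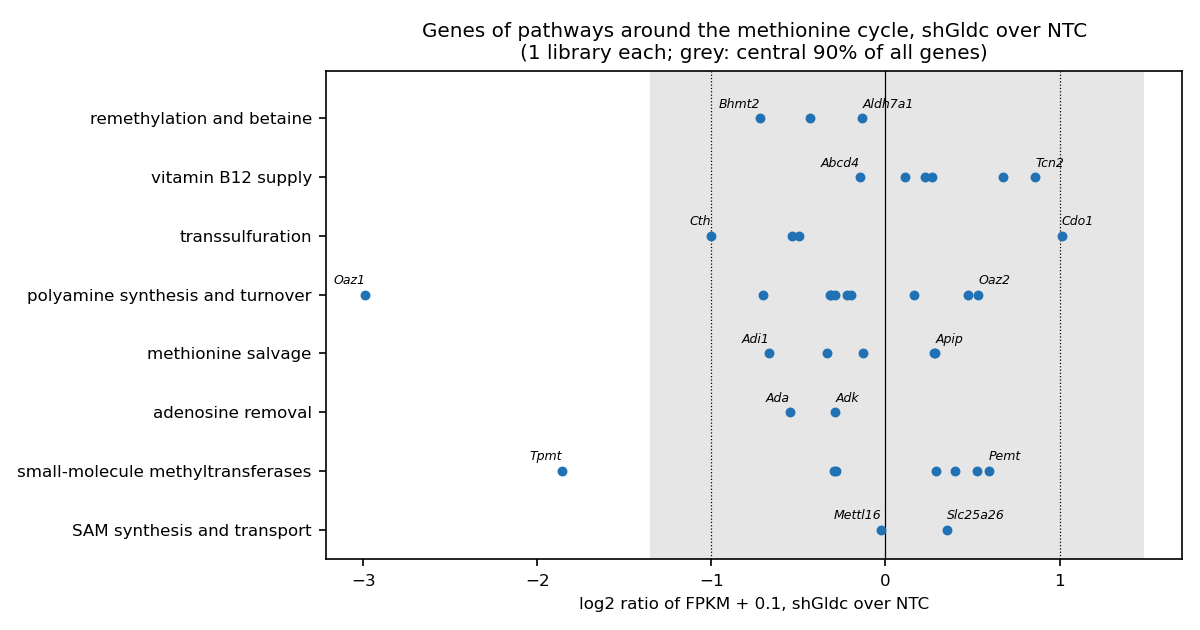
Log2 ratio of FPKM + 0.1 in shGldc over NTC (horizontal axis) of every gene that passed the filter in 8 pathway lists around the cycle (vertical axis), 1 point per gene, with dotted lines at 2-fold and the central 90% of all tested genes in grey. Most points lie within 2-fold, and Oaz1 (-2.99) and Tpmt (-1.86) lie outside the grey band.

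Profiles most like those of the members were found over the 5 libraries by the root mean square difference of centred log2(FPKM + 0.1), among 13656 genes, for the 8 members with a range of at least 2-fold. With 5 libraries from separately made tables, such likeness is a description of these libraries. Nearest to Mat2a were Dhx38 (0.06) and Cep89 (0.06), and of the members Mtr (0.16). Nearest to Ahcy were Dcaf15 (0.08) and Clmn (0.11), to Ahcyl1 Smtn (0.04) and Mark1 (0.07), to Mtr Myo1g (0.06) and Tkfc (0.08), and to Mtrr Tnpo2 (0.04) and Leng8 (0.04). Gnmt was nearest to Jakmip1 (0.24) and Pacsin1 (0.25), Bhmt to Ffar3 (0.40) and Zfp36l3 (0.57), and Amd1 to Plagl1 (0.62) and Rsc1a1 (0.72). Bhmt, Gnmt and Amd1 thus had no close match, and no other member was near them, the nearest being at 1.65 to 1.98. Ffar3 had an FPKM of 10.1 in shGldc cells and 1.09 in NTC cells, and Zfp36l3 had 14.6 and 1.87, so both were also highest in shGldc cells.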

How the data were processed

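RNA-seq was analysed from 5 mouse libraries, 1 per group. RNA was extracted with TRIzol and libraries were made with the NEBNext Ultra kit. The submitters' processing notes name TopHat2 2.1.0, StringTie 1.3.4d and SAMtools 1.7, and list the builds mm9 and mm10, of which the paper's methods name mm10. Annotation, strand setting and filters are not given in the sources used here. The authors deposited FPKM values from Ballgown in 2 tables of 24421 genes each, 1 with MEFs, iPSCs and V6.5 cells and 1 with NTC and shGldc cells, and every column was used. Samples were grouped by their labels.

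Differences were computed as log2 ratios with a pseudocount of 0.1, which understates changes of low genes, for genes that reached an FPKM of 1 in 1 or both libraries. No test was possible with 1 library per group, and 2-fold was used as a limit of size. The members and all gene lists were chosen with earlier results of these data known. Named were all 10 members, Gldc, Amd2, Bhmt2 and Mat1a, of each further list the genes with the highest and lowest ratio in shGldc over NTC and V6.5 over MEF and those at least 2-fold apart in shGldc over NTC, and for members with a range of at least 2-fold the 2 nearest profiles. Gm5096 was named for its sequence alone. Other genes outside this rule (Gm4737, Particl, Dmgdh, Jmy, Arsb, Chdh and single markers) were named after their values were seen. Depth was estimated from the spacing of low FPKM values of 5723 genes with a single transcript. Positions, overlaps and shared 50-base stretches came from GENCODE M21 of GRCm38 (mm10) and promoters from RefSeq. The alternatives were a pseudocount of 1 or 0.01, rescaling to the same FPKM sum, centring on the median, an FPKM of at least 5, no filter, and, added after the data were seen, summing Ahcy and Amd1 with their near copies. Some genes of these pathways are not reported here. The calculation of ratios was tested on simulated data. Python 3.11.15, numpy 2.4.6, pandas 2.3.3 and matplotlib 3.10.9 were used.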

Additional observations from a re-analysis of the deposited data

Results flagged for a closer look

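Mat2b, the regulatory subunit of SAM synthesis, differed from MEFs in opposite directions in the pluripotent cell types, with a log2 ratio of 0.17 in iPSCs and -0.04 in V6.5 cells. The difference of 0.21 was not tested, since each group was 1 library. After rescaling to the same FPKM sum the iPSC ratio was -0.13, so the opposite directions were not kept.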

How the results depend on the processing

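No paired analysis was possible because each group was 1 library, and for the same reason no library could be left out. A single-gene ratio was called moved past 0.594, the robust SD of the log2 ratios of NTC over V6.5. Of the single-gene values under all alternatives, 379 stayed within that, 20 moved and 4 reversed. The 4 reversed were the Amd1 row summed with Amd2, a step chosen after seeing the data, which gave 0.91 in V6.5 over MEF, -0.85 in iPSCs over V6.5, -0.092 in NTC over V6.5 and -0.30 in shGldc over V6.5. Summed with Gm4737, the ratio of Ahcy in iPSCs over MEFs was 0.24 in place of 0.99. Counts of members at least 2-fold apart changed by over 1.5 times in 8 cases. With an FPKM of at least 5 the count was 1 in iPSCs over MEFs, 2 in iPSCs over V6.5 and 0 in NTC over V6.5, where fewer genes were kept. In NTC over V6.5 it fell to 1 under a pseudocount of 1, and to 1 where the copies were summed. In shGldc over NTC it was 2 with a pseudocount of 0.01, 2 after rescaling and 2 after centring, as Gnmt crossed the limit. In iPSCs over MEFs the count stayed 3 after rescaling and centring, but Mtrr (0.96 and 0.94) left it and Ahcyl1 (-1.16 and -1.17) entered it. Most of the 20 moved with the pseudocount, in genes at or near 0 in a library. With a pseudocount of 1 or 0.01, Gnmt was 3.51 or 10.03 in V6.5 over MEF and 2.29 or 8.61 in iPSCs over MEFs, and Bhmt 1.59 or 7.66 in iPSCs over MEFs. Bhmt in shGldc over NTC was 2.62 with a pseudocount of 1. Depth limits most the low values of Bhmt, Amd1 and Mat1a.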

Other observations

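Among genes on the exit of homocysteine to cysteine, Cth stood furthest apart between iPSCs and V6.5 cells. It had an FPKM of 95.6 in iPSCs and 9.20 in V6.5 cells, 10.4-fold apart, where NTC cells had 19.3 and shGldc cells 9.60. Cbs, the step before it, was 31.2 in iPSCs and 23.0 in V6.5 cells, and Mpst was 11.3 and 30.6. Dmgdh was 39.1-fold higher in iPSCs than in V6.5 cells, at 2.102 against 0.0538, beside 10.2-fold for Bhmt and 11.5-fold for Bhmt2. These folds rest on few fragments in V6.5 cells, about 12.1 for Bhmt and 6.49 for Bhmt2, and with the pseudocount the log2 ratios were 3.84, 2.83 and 2.69. Adk, which removes adenosine, was 14.4 in iPSCs and 34.9 in V6.5 cells, the same direction as Ahcy, while Ada, which also removes it, was 11.8 and 8.65, the opposite direction. These genes were named after their values were seen, and each comparison was of 1 library with 1 library.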
